A study of Rattus norvegicus with 12 samples.

Results

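Heat shock proteins and their co-chaperones were followed in rat knee articular cartilage after joint surgery. The set held 10 genes of cytosolic and mitochondrial chaperones, namely Hspb1, Hspb8, Hspa8, Hspa4, Hsph1, Hspd1, Hspe1, Hsp90aa1, Dnajb1 and Bag3. A probe set, the group of short probes that reads 1 transcript on the array, was taken where its annotation gave a member as its only gene symbol. By this rule 8 of the 10 genes were measured, with 11 of the 31099 probe sets on the array. The probe sets for Hspa8, the constitutive cytosolic HSP70, and for Hsp90aa1, the inducible cytosolic HSP90, were each annotated with a second symbol as well, so no values are given for these 2 genes. Of the 11 probe sets, 10 passed the filter on low values (over log2 4 on at least 3 of the 12 arrays), as did 15934 probe sets in all, and each of the 8 genes kept at least 1.

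The study read total RNA of the cartilage on Affymetrix arrays of 1 colour and placed 3 arrays in each of 4 groups. The groups were rats 8 weeks after OA surgery, 8 weeks after the sham operation, 2 weeks after OA surgery and 2 weeks after the sham operation. OA surgery induces osteoarthritis, and sham is its control. The labels give no strain, sex or age, and do not say whether the 3 arrays of a group came from separate animals or from pools, so p-values measure only the spread between these samples. All values below are the deposited log2 values, in which 1 unit is a doubling of the signal. The level of 1 probe set is not set against that of another.

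Chaperones bind unfolded or aggregation-prone proteins. Small heat shock proteins such as HSPB1 and HSPB8 hold such clients without using ATP, and HSP70 proteins then refold them with the help of J proteins, which deliver the client, and of nucleotide exchange factors, which reset the HSP70 cycle. BAG3 links HSP70 and HSPB8 and hands clients to autophagy, and HSP60 with its lid HSP10 folds proteins inside mitochondria. In cartilage, chondrocytes are exposed to mechanical load and must fold large amounts of matrix protein. When unfolded proteins accumulate, the transcription factor HSF1 forms trimers that bind heat shock elements, arrays of the unit GAA in alternating orientation, in the promoters of chaperone genes.

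The promoters of the set were read to show these elements. The windows are the 250 bases before the annotated start in RefSeq (build GRCr8), which held 9 of the 10 members. Hsp90aa1 was not matched. The windows of Hspb8, Hspa4 and Hspd1 overlap the annotated span of their own gene, so they do not lie wholly outside it. The search took pairs of units, GAANNTTC and TTCNNGAA. Each pair reads the same on both strands, and neighbouring pairs overlap where 3 units follow each other. At least 1 pair was present in 8 of the 9 windows, all but that of Hspa4, and in 13.5% of the 33469 promoter windows of the table. GAANNTTC was found in 8 of the 9 members and 7.23% of all windows, and TTCNNGAA in 4 of the 9 members and 7.48% of all windows. A row of 3 alternating units was found in Hspa8, Hsph1, Hspd1 and Hspe1, 4 of the 9, and in 0.663% of all windows. The 30-base stretches below show 1 match for each measured gene that has one, with the units of the element in capitals.
Hspb1, chr12:26432412-26432441, minus strand: cttcaactagaGAAgtTTCcagatgggggc
Hspb8, chr12:45837274-45837303, plus strand: agaagccaggaGAAgtTTCtaggcgcgtga
Bag3, chr1:192533317-192533346, plus strand: ggatgggaccaGAAgtTTCtagccggccag
Dnajb1, chr19:41431142-41431171, minus strand: cgacgcatcgggaggggcgGAAggTTCtgg
Hsph1, chr12:10427321-10427350, plus strand: aatgccgcagaTTCtgGAAagTTCtcctca
Hspd1, chr9:64084256-64084285, minus strand: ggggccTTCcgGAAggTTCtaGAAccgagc
Hspe1, chr9:64084256-64084285, plus strand: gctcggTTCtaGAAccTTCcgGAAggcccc
Hspb1, Hspb8 and Bag3 carried the same 8 bases, GAAGTTTC, at 129, 23 and 132 bases before their starts. The share of all windows with these exact 8 bases was not counted, so the match does not set the 3 genes apart. The stretches of Hspd1 and Hspe1 are the same genomic bases read on opposite strands, since these neighbouring genes point away from each other. That element, counted above for both genes, began 242 bases before the start of Hspd1 and 65 bases before that of Hspe1. A match of letters describes the window and does not show that a factor binds there.

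Setting OA against sham at 8 weeks asked what the disease model changes by its later time. At 8 weeks the small heat shock genes and their partner Bag3 lay higher in OA than in sham, and Hsph1 and Dnajb1 lay lower, with no overlap of the 3 OA and 3 sham arrays. None of the 8 genes passed the test in either direction. The test was limma over all 12 arrays with Benjamini-Hochberg adjustment over the 15934 probe sets, of which 552, or 3.46%, were called at an adjusted p under 0.05. At an unadjusted p under 0.05, 4 of the 8 members lay (Hspb1, Hspb8, Hsph1 and Dnajb1), and 3423 of all probe sets. The adjusted p of the members ran between 0.0827 (Hspb8) and 0.946 (Hspa4). Their median difference was -0.03, against 0.01 over all probe sets tested. All 3 OA arrays lay above all 3 sham arrays for 3 of the 8 members, 37.5%, against 12.3% of all probe sets. They lay below them for 2 of the 8, which is 25%, against 12.8% of all probe sets.

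**Figure D1:**
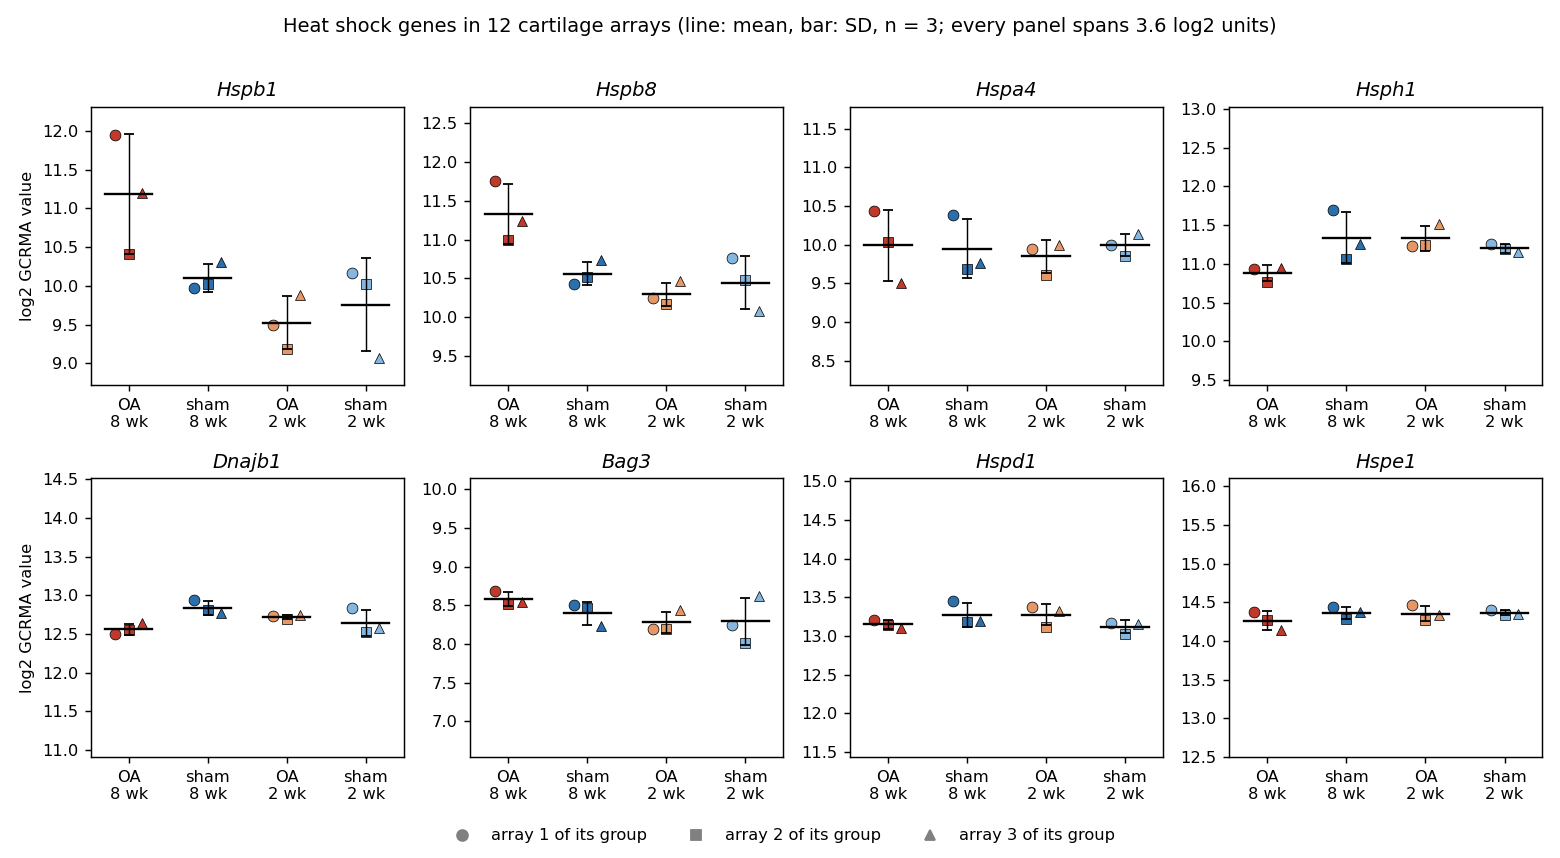
Log2 values of the 8 measured heat shock genes (leading probe set of each) on the 12 arrays, with groups on the x axis, 1 point per array, a line at the group mean and a bar of 1 SD (n = 3); every panel spans the same number of log2 units. Hspb1 and Hspb8 stand highest on the 3 OA arrays at 8 weeks, Hsph1 stands lowest there, and Hspd1 and Hspe1 stay within a narrow band.

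Hspb1 encodes HSP27, a small heat shock protein that also steadies actin filaments, and was read by the probe set 1367577_at. Its 3 OA arrays at 8 weeks read 11.95, 10.41 and 11.20, against 9.97, 10.03 and 10.31 on the 3 sham arrays at 8 weeks. At 2 weeks the OA arrays read 9.50, 9.19 and 9.88 and the sham arrays 10.17, 10.03 and 9.07. The 3 OA arrays at 8 weeks were thus the 3 highest of the 12, and they were also the most spread, with an SD of 0.77 against 0.18 in sham at 8 weeks. The difference of OA from sham at 8 weeks was 1.08 ± 0.39 (SE; 95% interval 0.22 to 1.95), a 2.12-fold higher level that did not pass in limma (adjusted p = 0.151). Without OA 8 weeks replicate 1 it was 0.70, and over all arrays left out 1 at a time it lay between 0.70 and 1.47 with no call. In the test all 4 groups share 1 estimate of the spread. The upstream window of Hspb1 is shown whole because it holds 2 separate pairs of units, at 129 and at 109 bases before the start, in capitals.
Hspb1, chr12:26432302-26432551, minus strand: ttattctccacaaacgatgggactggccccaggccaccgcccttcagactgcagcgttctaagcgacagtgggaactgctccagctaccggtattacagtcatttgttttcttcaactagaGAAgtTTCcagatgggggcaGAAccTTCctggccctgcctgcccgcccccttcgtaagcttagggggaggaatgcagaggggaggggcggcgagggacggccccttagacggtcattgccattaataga

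Hspb8 encodes HSP22, the small heat shock protein that works in a complex with BAG3. Its probe set 1388721_at read 11.75, 11.00 and 11.24 in OA at 8 weeks, against 10.43, 10.52 and 10.73 in sham at 8 weeks. The OA arrays at 2 weeks read 10.24, 10.17 and 10.46, and the sham arrays at 2 weeks 10.76, 10.48 and 10.08. As for Hspb1, every OA array at 8 weeks stood above all 9 other arrays, and at 2 weeks the groups overlapped. The difference of OA from sham at 8 weeks was 0.77 ± 0.22 (1.70-fold, adjusted p = 0.0827), the smallest p of the set. A second probe set of Hspb8, 1387282_at, lay between 2.20 and 2.31 on all 12 arrays, under the filter, and was not tested.

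Bag3 encodes the co-chaperone that joins HSPB8 and HSP70 to selective autophagy. Its probe set 1390026_at read 8.69, 8.52 and 8.55 in OA at 8 weeks, against 8.50, 8.46 and 8.23 in sham at 8 weeks. The lowest OA array stood barely above the highest sham array. OA arrays at 2 weeks read 8.20, 8.20 and 8.44, and sham arrays at 2 weeks 8.24, 8.02 and 8.62, so the range of sham at 2 weeks reached that of OA at 8 weeks. The difference at 8 weeks was 0.19 ± 0.15 (adjusted p = 0.512).

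Hsph1 encodes HSP105, a member of the HSP110 family that acts as a nucleotide exchange factor for HSP70 and prevents aggregation. Its brighter probe set, 1388898_at, read 10.93, 10.76 and 10.95 in OA at 8 weeks, against 11.70, 11.06 and 11.26 in sham at 8 weeks. In OA at 2 weeks it read 11.23, 11.25 and 11.52, and in sham at 2 weeks 11.26, 11.19 and 11.15. The 3 OA arrays at 8 weeks were the lowest of the 12. The difference of OA from sham at 8 weeks was -0.46 ± 0.15 (0.726 of the sham level, adjusted p = 0.128). It was -0.28 without sham 8 weeks replicate 1, and lay between -0.60 and -0.28 with any 1 array left out, with no call. The other probe set, 1385620_at, was dim, with values between 2.45 and 4.58, so its differences give no exact size. At 8 weeks its difference was -0.69 ± 0.35 (adjusted p = 0.298), larger in size than that of the brighter probe set. Of the measured cytosolic members, Hsph1 alone had 3 units in a row, which end 24 bases before the start, beside a further pair at 105 bases, and its window is shown for that reason.
Hsph1, chr12:10427118-10427367, plus strand: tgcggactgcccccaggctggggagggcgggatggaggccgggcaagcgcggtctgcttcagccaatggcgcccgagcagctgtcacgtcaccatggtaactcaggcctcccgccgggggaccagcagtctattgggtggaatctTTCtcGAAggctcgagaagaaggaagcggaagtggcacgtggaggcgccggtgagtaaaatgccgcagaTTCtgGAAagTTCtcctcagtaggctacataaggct

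Dnajb1 encodes HSP40, the J protein that feeds clients to inducible HSP70. Its probe set 1388722_at read 12.50, 12.55 and 12.64 in OA at 8 weeks, against 12.94, 12.81 and 12.77 in sham at 8 weeks. In OA at 2 weeks it read 12.73, 12.69 and 12.74, and in sham at 2 weeks 12.83, 12.52 and 12.58. OA lay below sham at 8 weeks on every array, by a difference of -0.28 ± 0.10 (0.824 of the sham level, adjusted p = 0.140). The dimmer probe set 1383302_at gave 7.39, 7.10 and 7.40 in OA at 8 weeks, against 7.66, 7.43 and 7.63 in sham at 8 weeks, and the same difference of -0.28 ± 0.10 (adjusted p = 0.161). Both probe sets of Dnajb1 were therefore lower in OA at 8 weeks without overlap, and neither passed.

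Hspa4 encodes APG-2, the second HSP110 protein of the set, and was the one gene whose window held no pair of units. Its probe set 1370344_at read 10.43, 10.04 and 9.51 in OA at 8 weeks, against 10.39, 9.69 and 9.77 in sham at 8 weeks. Its lowest 2-week array was an OA one at 9.61, and its highest a sham one at 10.14. All 4 groups of Hspa4 overlapped, and the difference at 8 weeks was 0.04 ± 0.25 (95% interval -0.51 to 0.59). This interval reaches past the difference found for Hsph1 and does not show that Hspa4 was unchanged.

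The mitochondrial pair varied least. Hspd1, which encodes HSP60, was read by 1386894_at as 13.21, 13.14 and 13.10 in OA at 8 weeks, against 13.45, 13.18 and 13.19 in sham at 8 weeks. It read 13.38, 13.12 and 13.32 in OA at 2 weeks and 13.17, 13.02 and 13.16 in sham at 2 weeks. Hspe1, which encodes HSP10, was read by 1386898_at as 14.38, 14.27 and 14.14 in OA at 8 weeks, against 14.44, 14.28 and 14.37 in sham at 8 weeks. It read 14.46, 14.27 and 14.33 in OA at 2 weeks and 14.40, 14.34 and 14.35 in sham at 2 weeks. The groups of both genes overlapped at each time. The difference of OA from sham at 8 weeks was -0.12 ± 0.10 for Hspd1 (95% interval -0.35 to 0.11, adjusted p = 0.546) and -0.10 ± 0.09 for Hspe1 (95% interval -0.30 to 0.10, adjusted p = 0.573). Both intervals end far below the differences estimated for Hspb1 and Hspb8, although values this high on an array can be compressed.

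**Figure D2:**
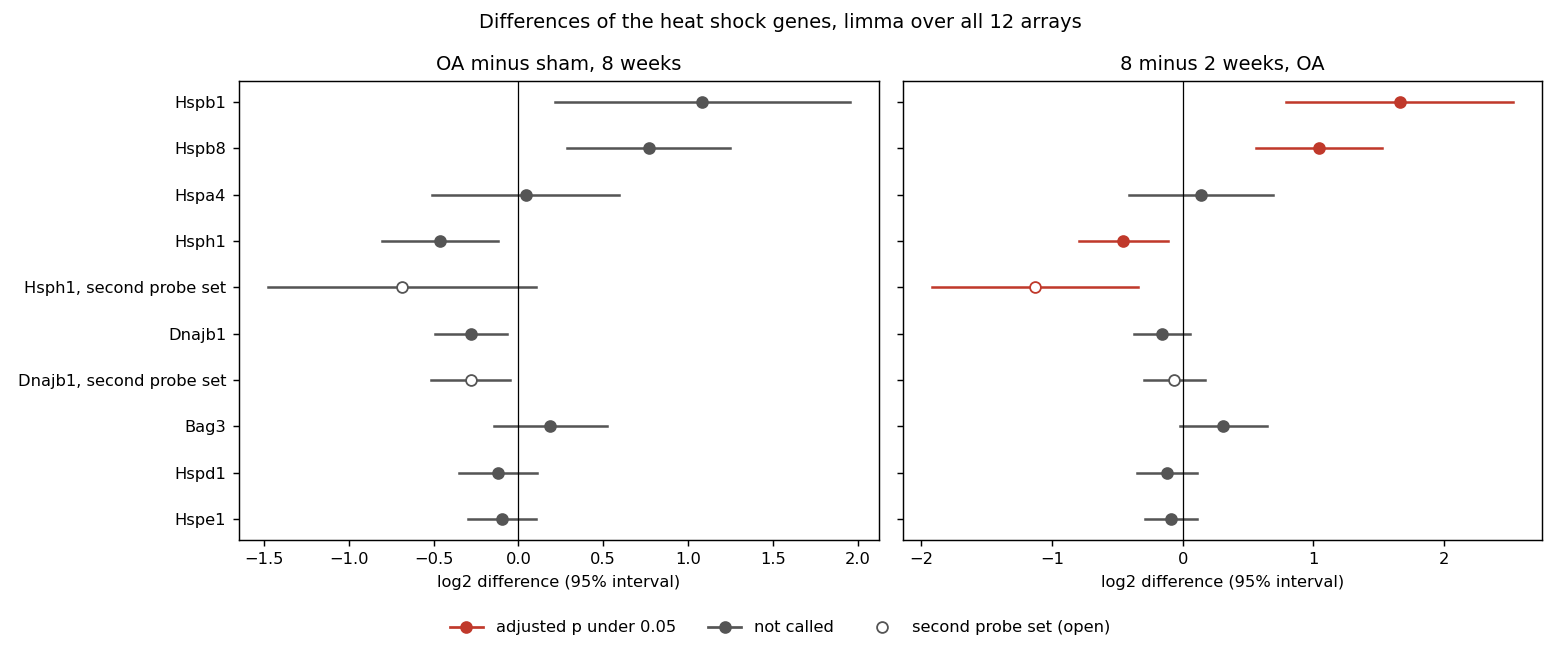
Log2 differences (points) with 95% intervals (lines) of the 10 kept probe sets of the heat shock genes, for OA minus sham at 8 weeks (left) and for 8 minus 2 weeks within OA (right); red marks an adjusted p under 0.05 in limma and open points mark a second probe set. No difference on the left was called, and on the right Hspb1 and Hspb8 were called higher at 8 weeks and both probe sets of Hsph1 lower. The second probe set of Hsph1 is dim, with values close to the filter.

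At 2 weeks OA and sham overlapped for each of the 8 genes. Their differences ran between -0.23 ± 0.39 (Hspb1) and 0.16 ± 0.10 (Hspd1). None passed, and at an unadjusted p under 0.05 there were 0 members and 269 probe sets. Over all probe sets 0% were called in limma at 2 weeks, so the members did as the whole array did.

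Averaged over both times, 0 of the 8 members were called, against 0.364% of all probe sets, and 0 had an unadjusted p under 0.05, against 1976 of all probe sets. The change of the OA effect between the times (the 8-week difference minus the 2-week difference) was likewise called for 0 of the 8, against 0.138% of all probe sets. At an unadjusted p under 0.05 in limma there were 4 of the 8 members and 1760 of all probe sets. Its largest values were 1.32 ± 0.55 for Hspb1 (adjusted p = 0.423) and 0.92 ± 0.30 for Hspb8 (adjusted p = 0.327), and on the other side -0.59 ± 0.22 for Hsph1 (adjusted p = 0.380) and -0.35 ± 0.14 for Dnajb1 (adjusted p = 0.403). These are the 4 genes that came nearest to the threshold at 8 weeks, and the 2 comparisons share those 6 arrays. An OA effect that differs between 2 and 8 weeks was therefore not shown for any member.

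Within OA joints, the arrays at 8 weeks were set against those at 2 weeks. Hspb1 rose by 1.66 ± 0.39 (3.17-fold, adjusted p = 0.00808), with means of 11.19 ± 0.77 at 8 weeks and 9.53 ± 0.35 at 2 weeks (SD, n = 3 arrays each). Hspb8 rose by 1.04 ± 0.22 (2.06-fold, adjusted p = 0.00401), with means of 11.33 ± 0.39 at 8 weeks and 10.29 ± 0.15 at 2 weeks. Hsph1 fell, with a difference of -0.45 ± 0.15 (0.731 of the 2-week level, adjusted p = 0.0441) and means of 10.88 ± 0.10 at 8 weeks and 11.33 ± 0.16 at 2 weeks. In each of these 3 genes the 3 arrays of one time lay beyond the 3 of the other. The dim probe set of Hsph1 was called lower as well (-1.13 ± 0.35, adjusted p = 0.0323). It lay under log2 4 on all 3 OA arrays at 8 weeks, and read only 3.80, 3.98 and 4.58 in OA at 2 weeks. With both groups this close to the filter, the difference gives no exact size. It is not taken as support for the call of the brighter probe set. The other 5 members were not called, with Bag3 at 0.31 ± 0.15 (adjusted p = 0.140) and Dnajb1 at -0.16 ± 0.10 (adjusted p = 0.240).

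The 3 calls make up 37.5% of the 8 members, and over the whole array 34.1% of probe sets were called in this comparison (21.7% higher and 12.4% lower at 8 weeks), so the share is near that of all probe sets. The median difference of the members was 0.03, against 0.09 over all probe sets. The call of Hsph1 was near the threshold. It ended when any 1 of 10 arrays was left out (adjusted p between 0.0567 and 0.137), and held without sham 8 weeks replicate 1 (0.0103) and without sham 8 weeks replicate 2 (0.0274). The calls of Hspb1 and Hspb8 held without any 1 array, with adjusted p between 0.00241 and 0.0343 for Hspb1 and between 0.00275 and 0.0177 for Hspb8.

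Within sham joints none of the 8 was called between 8 and 2 weeks and 0 had an unadjusted p under 0.05 in limma by their leading probe sets, while 18.7% of all probe sets were called (12.5% higher and 6.24% lower at 8 weeks). Hspb1 differed by 0.35 ± 0.39, Hspb8 by 0.12 ± 0.22 and Hsph1 by 0.14 ± 0.15. The gene nearest to the threshold was Dnajb1 (0.20 ± 0.10, adjusted p = 0.235). Its dimmer probe set differed by 0.25 ± 0.10, with an unadjusted p of 0.0364 and an adjusted p of 0.146 in limma. There the 3 sham arrays at 8 weeks lay above the 3 at 2 weeks. That the time difference was called in OA and not in sham does not show that it differed between them, since the test of that difference is the change of the OA effect given above. The labels give no hybridization batch, so time after surgery and any difference in handling between the 2-week and 8-week arrays cannot be told apart.

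Hspb1 and Hspb8 moved together from array to array. Over the 12 arrays the Pearson correlation of their log2 values was 0.983 and Spearman's rho 0.979. Over deviations from the 4 group means the correlation was 0.960, so the array-to-array differences within a group were shared too. Among the 9247 genes with a kept probe set, less those whose symbols begin with LOC, RGD or AABR, each of the 2 was the gene most like the other. The same symbols were left out for the other members. The following most like Hspb1 were Ttc23 (0.931) and the amine oxidase gene Aoc3 (0.924), and those most like Hspb8 were Aoc3 (0.929) and the mineralocorticoid receptor gene Nr3c2 (0.921). These figures describe 12 arrays that share their normalization and carry the differences between groups, and they were picked as the highest of many.

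The other members were less alike. Hsph1 and Dnajb1 gave 0.715 over the 12 arrays and 0.489 within groups, and the mitochondrial partners Hspd1 and Hspe1 gave 0.631 and 0.744. The cytosolic Hspa4 was as near to both, with 0.663 and 0.829 for Hspe1 and 0.511 and 0.802 for Hspd1. Bag3 followed Hspb8 across the 12 arrays (0.459) but not within groups (-0.20). Hspb8 and Hsph1 ran opposite over the 12 arrays (-0.55) and not within groups (0.212). The genes most like Hspe1 were Grpel1 (0.923), the nucleotide exchange factor of the mitochondrial HSP70, Ercc3 (0.881) and Ppp3r1 (0.872). Those most like Hspd1 were Trip12 (0.940), Pex13 (0.936) and Pold3 (0.910), and those most like Hspa4 were Spring1 (0.959), Mettl18 (0.915) and C1qtnf7 (0.895). For Hsph1 they were Qtrt1 (0.962), Ebpl (0.935) and Ptp4a1 (0.931), for Bag3 Hexim1 (0.939), Clstn1 (0.939) and Sf1 (0.926), and for Dnajb1 Psmd5 (0.885), Tardbp (0.878) and Ptdss1 (0.874).

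**Figure D3:**
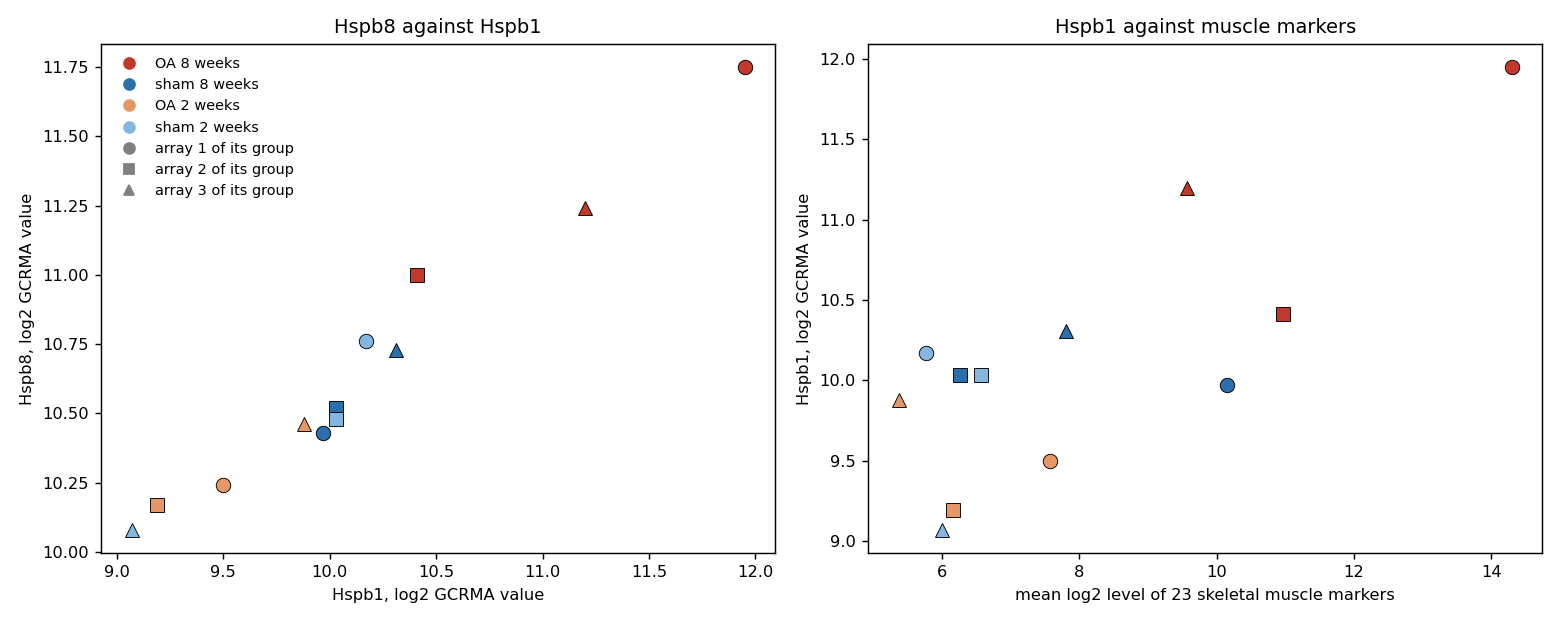
Left, log2 value of Hspb8 against that of Hspb1 on each of the 12 arrays; right, log2 value of Hspb1 against the mean log2 level of 23 skeletal muscle markers on the same arrays; colour gives the group and the symbol the replicate number. The points on the left lie close to one line, and on the right OA 8 weeks replicate 1 is highest on both axes while OA 8 weeks replicate 3 is second for Hspb1 with a muscle level below that of sham 8 weeks replicate 1.

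Markers of skeletal muscle, a tissue rich in small heat shock proteins, followed Hspb1 and Hspb8 on some arrays and not on others. Here and for the lists below, a gene counts as measured if it passed the filter. Of 30 muscle markers listed, 29 had a probe set and 23 passed. Among those left out, Myh2 reached 14.36 but on too few arrays. The mean log2 level of the 23 was 14.30, 10.96 and 9.58 on the OA arrays at 8 weeks, against 10.16, 6.26 and 7.81 on the sham arrays at 8 weeks. It lay between 5.37 and 7.58 in OA at 2 weeks and between 5.76 and 6.57 in sham at 2 weeks. OA 8 weeks replicate 1 had the highest muscle level and the highest Hspb1 and Hspb8. OA 8 weeks replicate 3 had the lowest muscle level of its group and the second highest Hspb1 and Hspb8 of all arrays. Sham 8 weeks replicate 1 had the highest muscle level of its group, with the lowest Hspb1 (9.97) and Hspb8 (10.43) of that group. The muscle creatine kinase gene Ckm read 15.96, 11.88 and 10.44 in OA at 8 weeks, against 11.21, 3.00 and 8.10 in sham at 8 weeks. Sham 8 weeks replicate 2, where Ckm was lowest of the 12, read 10.03 for Hspb1 and 10.52 for Hspb8. Of the 23 muscle markers, 0 were called between OA and sham at 8 weeks, against 3.46% of all probe sets. Even so, 22 of them lay higher in OA, with a median difference of 3.46 log2 units. Between 8 and 2 weeks 14 were called higher in OA and 2 in sham, against 21.7% and 12.5% of all probe sets. Of these called markers, 5 in OA and both in sham lay under log2 4 on all 3 arrays of that group at 2 weeks.

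With the muscle level as a covariate in limma, the 8 minus 2 week difference in OA was 1.18 for Hspb1 (adjusted p = 0.317), 0.79 for Hspb8 (adjusted p = 0.217) and -0.70 for Hsph1 (adjusted p = 0.113), and none was called. Without the covariate these differences were 1.66, 1.04 and -0.45. In OA the muscle level did not overlap between the times, so the fit separates it from time only by the spread within groups. Over all probe sets the calls in this comparison fell from 5430 to 2203. With the covariate, the difference of OA from sham at 8 weeks was 0.76 for Hspb1 and 0.60 for Hspb8. Without both 8-week arrays numbered 1, it was 0.64 for Hspb1 and 0.49 for Hspb8, and the 8 minus 2 week differences in OA stayed called at 1.28 (adjusted p = 0.0331) and 0.83 (adjusted p = 0.0149). In bulk RNA, a change in the share of a cell type and a change in RNA per cell cannot be told apart.

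Markers of several other cell types were called lower in OA at 8 weeks. Over all probe sets, 3.46% were called in either direction between OA and sham at 8 weeks. From 2 to 8 weeks, 12.4% were called lower in OA and 6.24% in sham. Of 14 measured macrophage markers (of 17), 4 were called lower in OA than in sham at 8 weeks and 10 lower at 8 than at 2 weeks in OA. Their mean level was between 6.65 and 6.79 in OA at 8 weeks, against 7.68 to 10.35 in sham at 8 weeks. The defining gene Cd68 read 2.26 to 2.98 in OA, against 7.86 to 9.95 in sham. Of the 10 called over time in OA, Aif1, C1qb and Cd68 lay at or under log2 4 on all 3 OA arrays at 8 weeks. These passed the filter through other arrays, so their differences give no exact size, over time or against sham at 8 weeks. All 5 measured osteoclast markers were called lower in both comparisons, with a mean level of 9.48 to 10.82 in OA at 8 weeks, against 12.53 to 12.87 in sham at 8 weeks. Of 7 osteoblast and osteocyte markers, 3 were called lower in OA than in sham at 8 weeks and 6 lower at 8 than at 2 weeks in OA, and of 6 endothelial markers 0 and 5. Of 8 synovial fibroblast and tendon markers, 1 and 2 were called lower in these comparisons, of 3 erythroid markers 0 and 3, and of 4 adipocyte markers 1 and 1. In the time comparison within OA 1 adipocyte marker was called higher. Both adipocyte calls there, Cfd lower and Fabp4 higher, had all 3 arrays of the lower group at or under log2 4. Cfd was also the adipocyte call against sham at 8 weeks, where the lower group is the same 3 OA arrays (mean 1.76). In sham between 8 and 2 weeks, markers called lower were 1 each of the macrophage, erythroid and synovial lists, 2 of the endothelial and 0 of the others. 

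Some chondrocyte markers were called lower too, and the shares of all probe sets are those given above. Of 12 measured (of 15), 3 were called lower in OA than in sham at 8 weeks, the collagen IX genes Col9a3 (-0.60 ± 0.10, adjusted p = 0.0158), Col9a2 (-1.04 ± 0.20, adjusted p = 0.0247) and Col9a1 (-0.48 ± 0.10, adjusted p = 0.0296), and 4 were called lower at 8 than at 2 weeks in OA. Col2a1, the main cartilage collagen, lay below sham on all 3 OA arrays at 8 weeks without passing (-0.20 ± 0.08, adjusted p = 0.196). Acan, also a defining marker, went the other way, with overlap (0.22 ± 0.11, adjusted p = 0.271 in limma). It was higher over time in OA as well (0.23 ± 0.11, adjusted p = 0.120 in limma). Of the 12 markers, 4 lay higher in OA than in sham at 8 weeks, and 2 higher at 8 than at 2 weeks in OA. The mean level of the 12 was 13.68 to 13.97 in OA at 8 weeks, against 14.05 to 14.32 in sham at 8 weeks. The part of these cell types in the values of the heat shock genes was not tested. The share of probe sets over log2 4 was 48.2% to 49.0% on the 2-week arrays and 49.3% to 49.8% on the 8-week arrays, without overlap.

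The rest of the chaperone network was read from 10 lists with 104 genes outside the set, of which 83 had a kept probe set. In OA against sham, 0 of the 83 were called at 8 weeks, at 2 weeks, averaged or in the change between times. Between 8 and 2 weeks, 14 were called higher and 2 lower in OA, and 8 higher and 2 lower in sham. That is 19.3% of the 83 in OA and 12.0% in sham, below the 34.1% and 18.7% of all probe sets. The counts of single lists below stand against the same shares. In each comparison 3 of the genes called higher, Bag2, Bag4 and Unc45b, lay under log2 4 on all arrays at 2 weeks. They passed the filter only through the 8-week arrays where they are high, so they had to differ, and their calls support nothing about the lists. The median difference of the 83 genes at 8 weeks was 0.01, equal at this rounding to that of all probe sets.

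The other small heat shock proteins were the family nearest to Hspb1 and Hspb8, and only 2 of 8 listed, Cryab and Hspb6, passed the filter. The other 5 with a probe set did not exceed 3.45 on any array. Cryab, which encodes alpha-B-crystallin, read 11.48, 7.67 and 6.97 in OA at 8 weeks, against 6.67, 6.35 and 5.63 in sham at 8 weeks. Its difference was 2.49 ± 1.18 (adjusted p = 0.256). Hspb6, which encodes HSP20, read 12.68, 10.41 and 11.04 in OA at 8 weeks, against 10.40, 10.19 and 10.52 in sham at 8 weeks, with a difference of 1.01 ± 0.48 (adjusted p = 0.261). In both genes OA 8 weeks replicate 1, the array with the highest muscle level, stood far above the rest, and neither was called in any comparison.

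Among 5 other measured HSP70 and HSP110 genes, 1 was called higher and 0 lower between 8 and 2 weeks in OA, and 0 higher and 1 lower in sham. Hspa2, a constitutive HSP70, rose by 0.54 ± 0.17 in OA (adjusted p = 0.0369), and read 12.19, 12.17 and 12.65 in OA at 8 weeks, against 11.77, 11.89 and 11.70 in sham at 8 weeks. Its OA and sham arrays at 8 weeks did not overlap, and that difference did not pass (0.55 ± 0.17, adjusted p = 0.114). Hspa1a, the stress-inducible HSP70 whose partner is Dnajb1, fell in sham (-0.61 ± 0.13, adjusted p = 0.00708). It read 6.35, 6.51 and 6.49 in OA at 8 weeks, 5.86, 6.32 and 6.40 in sham at 8 weeks, 6.76 to 6.82 in OA at 2 weeks and 6.77 to 6.82 in sham at 2 weeks. The cytosolic Hsp90ab1 (0.08 ± 0.16 at 8 weeks) and the mitochondrial Trap1 (-0.26 ± 0.14) were the 2 other HSP90 genes, and neither was called.

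The heat shock factors were also listed. Hsf2 rose between 8 and 2 weeks in OA (0.37 ± 0.10, adjusted p = 0.0133). It read 13.30, 13.48 and 13.17 in OA at 8 weeks, against 13.02, 12.92 and 12.92 in sham at 8 weeks, a difference of 0.36 ± 0.10 that did not pass (adjusted p = 0.0716). Hsf1, which encodes the main stress-responsive factor, was dim, with values between 3.37 and 5.62 on the 12 arrays, and was not called in either time comparison (0.79 ± 0.36 in OA, adjusted p = 0.118; 0.93 ± 0.36 in sham, adjusted p = 0.117).

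**Figure D4:**
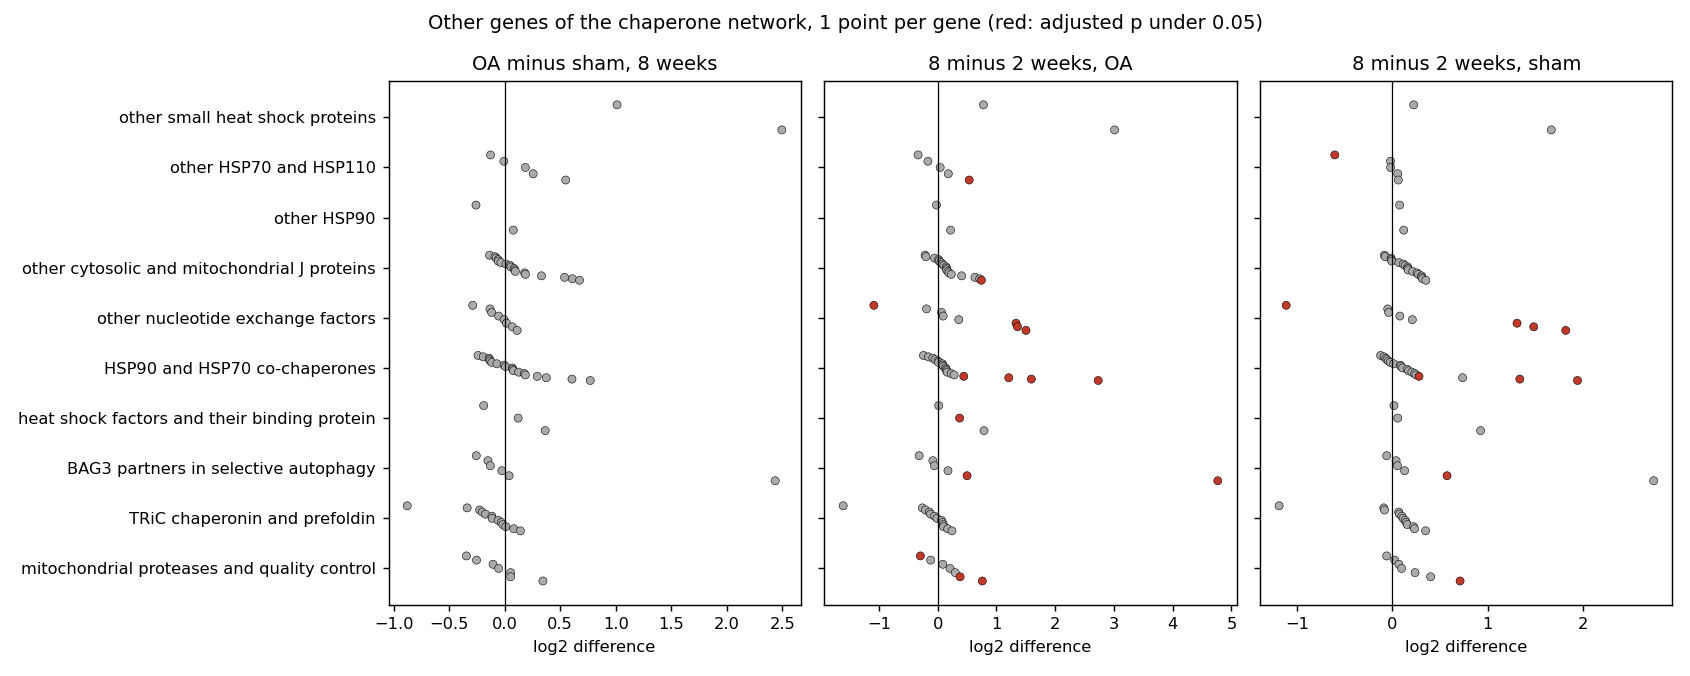
Log2 differences of the 83 other chaperone genes with a kept probe set, 1 point per gene in rows by list, for OA minus sham at 8 weeks (left), 8 minus 2 weeks in OA (middle) and 8 minus 2 weeks in sham (right); red marks an adjusted p under 0.05 in limma, and each panel has its own x scale. No gene was called on the left, and the called nucleotide exchange factors stand at like places in the middle and right panels.

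Nucleotide exchange factors other than Bag3 and Hsph1 gave 4 calls of 8 measured genes in OA and 4 in sham, 3 higher and 1 lower at 8 weeks in each, against 34.1% of all probe sets in OA and 18.7% in sham. Without Bag2 and Bag4, 2 calls remain in each, Hspbp1 and Bag6. Hspbp1, an exchange factor of cytosolic HSP70, rose 2.83-fold in OA and 3.53-fold in sham, with a standard error of 0.23 log2 units for each. Bag6 fell, with differences of -1.09 ± 0.16 in OA and -1.12 ± 0.16 in sham. Bag2, which restrains the ubiquitin ligase CHIP, lay between 4.88 and 4.93 on all 6 arrays at 8 weeks, against 3.58 to 3.61 on all 6 arrays at 2 weeks. Bag4 lay between 4.17 and 4.46 at 8 weeks, against 2.81 to 3.00 at 2 weeks. No size is given for differences this close to the filter, where this scale is compressed.

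Of 19 measured co-chaperones of HSP90 and HSP70, 4 were called higher in OA and 3 in sham, and 0 lower in either. Over all probe sets 21.7% were called higher in OA and 12.5% in sham. Without Unc45b the co-chaperone calls are 3 in OA and 2 in sham. Unc45b, the myosin chaperone of striated muscle, read 6.91 in OA 8 weeks replicate 1 and 2.88 to 2.94 on all 6 arrays at 2 weeks, so its differences give no exact size. Its general counterpart Unc45a rose by 0.44 ± 0.08 in OA and by 0.28 ± 0.08 in sham. Cdc37l1 rose by 1.21 ± 0.26 in OA and by 1.34 ± 0.26 in sham. Fkbp5, an HSP90 partner in steroid receptor complexes, rose by 1.59 ± 0.32 in OA (adjusted p = 0.00353) and differed by 0.74 ± 0.32 in sham (adjusted p = 0.172).

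Among 18 other J proteins, Dnajb2 rose in OA (0.74 ± 0.23, adjusted p = 0.0325) and 0 were called in sham, and the next by p was Dnajc8 (-0.21 ± 0.08 in OA, adjusted p = 0.0514). Of 6 measured partners of BAG3 in selective autophagy, 2 rose in OA and 1 in sham, against 21.7% and 12.5% of all probe sets. Synpo2, which encodes a muscle Z-disc protein, rose by 4.77 ± 1.04 in OA (adjusted p = 0.00540 in limma). It read 12.06, 7.72 and 7.07 in OA at 8 weeks, against 3.93, 3.96 and 4.65 in OA at 2 weeks. In sham it also stood higher at 8 weeks, with 7.28, 6.16 and 6.10, against 3.52, 3.83 and 3.95 at 2 weeks. Its 2-week values lie close to the filter, so its differences give no exact size. Hdac6, the deacetylase that gathers aggregates, rose by 0.50 ± 0.10 in OA and by 0.57 ± 0.10 in sham. Of the 13 measured subunits of the TRiC chaperonin and prefoldin, 0 were called in either. The TRiC gene Cct6a came nearest in OA with -0.21 ± 0.08 (adjusted p = 0.0810), and the prefoldin gene Pfdn6 with -1.61 ± 0.64 (adjusted p = 0.0782).

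The mitochondrial proteases, which act beside Hspd1 and Hspe1, gave 2 higher and 1 lower of 7 in OA and 1 higher in sham. Over all probe sets 34.1% were called in OA and 18.7% in sham. Afg3l2 rose by 0.76 ± 0.10 in OA and by 0.71 ± 0.10 in sham. Clpx rose in OA (0.38 ± 0.12, adjusted p = 0.0383) and Yme1l1 fell there (-0.29 ± 0.09, adjusted p = 0.0272).

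Immediate early genes, which respond within minutes to handling of a tissue as heat shock genes do within a longer time, were listed beside the set. The mean level of 20 measured genes (of 26) was 10.03 to 10.33 in OA at 8 weeks, against 9.63 to 9.68 in sham at 8 weeks, and 9.10 to 9.26 in OA at 2 weeks, against 9.29 to 9.81 in sham at 2 weeks. At 8 weeks 1 was called higher in OA, Nr4a2 (2.48 ± 0.36, adjusted p = 0.00912), and 0 lower. Between 8 and 2 weeks 9 rose and 1 fell in OA, and 2 rose and 1 fell in sham, against 34.1% of all probe sets called in OA and 18.7% in sham. Among them, Atf3 rose by 3.34 ± 0.56 in OA and by 2.01 ± 0.56 in sham, and Nr4a1 rose by 3.97 ± 0.67 in OA (adjusted p = 0.00119). Of the calls in sham, that of Nr4a3 had all arrays of the lower group at or under log2 4. At 8 weeks Hspb1 and Hspb8 also lay higher in OA than in sham, and Hsph1 and Dnajb1 lay lower, with none of these heat shock genes called. The part of handling in these values was not tested.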

How the data were processed

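Rat knee cartilage RNA was measured on 12 Affymetrix arrays, 3 in each of 4 groups. The values are the deposited log2 values, which the authors made with GCRMA, per the submitters' processing notes (version not stated); GCRMA corrects background, normalizes between arrays and summarizes the probes of a set. No further normalization was applied, and the number of arrays limits the precision.

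The 57 control probe sets were left out, and a probe set was kept if its value exceeded log2 4 in at least 3 arrays, which left out 15108. Gene symbols came from GEO's platform annotation. A gene is represented by the brightest of its kept probe sets that carry 1 symbol only. All kept probe sets were fitted with limma 3.58.1 in R 4.3.3, with 1 mean per group and moderated variances (degrees of freedom 8 residual, 1.94 prior), and differences with a Benjamini-Hochberg adjusted p under 0.05 were called. Errors beside differences are standard errors. The fit was checked on simulated data. Figures and promoter searches used Python 3.11.15.

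The members, lists and tests were chosen with earlier results of these data known. The genes named are all members, the 3 genes most like each, 2 to 4 genes of each chaperone list with the smallest p, and of the marker lists those a result turns on and defining markers; not every list's genes are named.

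Replicate numbers come from the labels, which state no meaning for them. Deviations from the group means correlated between same-numbered OA and sham arrays at 0.239, 0.237 and 0.119 at 8 weeks and at 0.333, 0.360 and 0.527 at 2 weeks, so the numbers were taken to pair OA with sham within a time, and a fit with that block was added after seeing the data. At 8 weeks OA replicate 3 correlated more with a sham array of another number. Between times, OA 8 weeks replicates 2 (0.237) and 3 (0.0489) were nearest to their own number and no sham array was. The numbers were not taken to pair arrays between times.

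The alternatives changed the filter, normalization, array weights, variance prior, arrays fitted, replicate block, muscle covariate and probe set. Promoter windows are from RefSeq, build GRCr8.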

Additional observations from a re-analysis of the deposited data

How the results depend on the processing

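The count of members called stayed at 0 in 5 comparisons (OA against sham at 8 weeks, at 2 weeks, averaged and in its change, and time within sham) under all alternatives tried. Within OA, 8 against 2 weeks, it was 3, lay between 2 and 3 when 1 array was left out, was 2 with a filter at log2 6 (Hsph1 at adjusted p = 0.0528), and was 0 with the muscle covariate; the cause was not tested. Of 1132 alternative values of members, 1067 kept direction and side of the threshold, 14 lost a call and 51 changed sign. The 51 came from 14 differences of at most 0.193 in size, none called (smallest adjusted p 0.402).

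With the replicate block over all arrays, the 3 calls within OA held (adjusted p = 0.0119 for Hspb1, 0.00660 for Hspb8 and 0.0392 for Hsph1). With the replicate block within each time, added after seeing the data, OA against sham at 8 weeks gave adjusted p = 0.161 for Hspb1, 0.108 for Hspb8, 0.0957 for Hsph1 and 0.145 for Dnajb1, and no call of a member changed; over all probe sets it called 1037, against 552 without the block.

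Sign changes by setting follow, as log2 differences. Array weights gave -0.00223 for Hspa4 at 8 weeks, 0.00179 for Hspe1 and 0.0581 for Bag3 at 2 weeks, -0.0765 for Hspa4 over time in OA and -0.0228 for Hspe1 over time in sham. The muscle covariate gave -0.51 for Hspa4 at 8 weeks, -0.32 for its change of effect, -0.68 for it over time in OA, -0.0529 for Hspd1 averaged and -0.0864 for Hspe1 over time in sham. Added quantile normalization gave 0.00982 for Bag3 at 2 weeks, and -0.0384 for Hspe1 and -0.00482 for Bag3 over time in sham. Equal array medians, which shift the median of all probe sets by -0.18 over time in OA and by -0.17 in sham, gave -0.0366 for Hspa4 over time in OA, and in sham -0.0534 for Hspb8, -0.0323 for Hsph1, -0.0129 for Hspd1, -0.17 for Hspe1 and -0.0643 for Bag3. Without both 8-week arrays numbered 1, Hspa4 over time in OA was -0.0760, and in sham Hsph1 was -0.0390 and Hspe1 -0.0359. The dim probe set of Hsph1 gave -0.31 over time in sham.

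Leaving out 1 array moved Hspa4 between -0.18 and 0.29 at 8 weeks, -0.16 and 0.0687 averaged, -0.0270 and 0.43 in the change, -0.0760 and 0.39 over time in OA and -0.27 and 0.0837 in sham. At 2 weeks it moved Hspb8 between -0.34 and 0.00703, Hspe1 between -0.0602 and 0.0356 and Bag3 between -0.15 and 0.15, and Hspd1 averaged between -0.00554 and 0.0645. Over time in sham it moved Hspb8 between -0.0631 and 0.28, Hsph1 between -0.0390 and 0.28, Hspe1 between -0.0359 and 0.0443 and Bag3 between -0.0269 and 0.27.

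The background counts moved more. At 8 weeks 552 probe sets were called, against 27 with only the arrays compared, 43 with the muscle covariate, 283 with equal medians, 362 without a filter and 1567 with array weights, and against 110 without sham 8 weeks replicate 3, 132 without sham 8 weeks replicate 2, 230 without OA 8 weeks replicate 2, 355 without OA 2 weeks replicate 1, 358 without sham 2 weeks replicate 1 and 979 without sham 8 weeks replicate 1. Over all alternatives the counts ran between 17 and 296 averaged, 7 and 130 for the change, 2203 and 9461 over time in OA, and 1523 and 6938 in sham.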
